A study of Mus musculus with 745 samples.

Results

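The genes described here are 10 that encode proteins of the vascular basement membrane and its surrounding matrix: Col4a1, Col4a2, Lama4, Fn1, Sparc, Sparcl1, Mmrn2, Ltbp4, Timp3 and Adamts1. They were taken by symbol from a table of 20607 genes, and all 10 had counts. The series is concerned with how proteins of the blood enter the brain and how age changes this, and its samples here were 745 single primary endothelial cells, sorted by FACS from brains of 3-month-old mice. No cell had another age, genotype or treatment, so the comparisons are between cells that carry arterial, capillary or venous markers. The cells fell into 3 sets by the prefix of their titles, Young1 with 225 cells, Young2 with 258 and AY_Y3 with 262. What a set stands for (one animal, pooled animals or a plate) and which markers gated the sort are not given in the labels. P-values over the 3 sets weigh a difference only against how far it varies from set to set, and that variation may be technical.

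Endothelial cells rest on a basement membrane, a thin sheet whose frame is made of collagen IV and laminin networks, and in brain vessels they share it with pericytes and with the feet of astrocytes. Fibronectin, matricellular glycoproteins such as SPARC and proteins that hold latent TGF-beta are attached to this sheet, and secreted proteases and their inhibitors remodel it. Brain endothelium changes in character from arteries through capillaries to veins, and cells can be placed along that axis by marker genes. None of the 10 matrix genes is among the markers that set this axis here.

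Of the 745 cells, 256 had a summed level of 2000 CPM (counts per 1000000 counts of the cell) or more over a marker list of another cell type and were left out. The 489 cells kept came from Young1 (152), Young2 (166) and AY_Y3 (171). Of the cells left out, 173 passed the limit on the oligodendrocyte list, nearly all through Mal. That gene had a count in 82.3% of all cells at a median of 847 CPM, and without it 15 cells passed that limit. Results are therefore also given with Mal dropped from the list wherever this changes a call, an alternative chosen after seeing the data that keeps 633 cells. The pericyte list took 80 cells, the astrocyte list 18, the smooth muscle list 5 and the microglia list 1. The 10 endothelial markers, Cldn5, Pecam1 and Cdh5 among them, summed to between 10902 and 13676 CPM in all 9 sums of set and class. Median counts per cell were 757949 in Young1, 713031 in Young2 and 411397 in AY_Y3.

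Each cell got 3 scores, the means of the standardised log2(CPM + 1) of Bmx and Gkn3 (arterial), Cxcl12 and Rgcc (capillary) and Nr2f2 and Il1r1 (venous). A cell took the class of its highest score where that lay at least 0.5 above the next. This gave 79 arterial-marker cells (15 in Young1, 37 in Young2 and 27 in AY_Y3), 185 capillary-marker cells (62, 48 and 75) and 77 venous-marker cells (23, 27 and 27), and 148 cells stayed unassigned. A class is a range of a score and not a cell type, and 29 cells lay within 0.1 of the margin. The arterial-marker sum of Young1, with 15 cells, is the smallest of the 9 by cells. In arterial-marker cells Bmx stood at 214 to 315 CPM over the sets but Gkn3 at 10.2 to 342 CPM. The level of Gkn3 in this class was thus unequal between the sets that serve as replicates. Of the wider lists of 8 markers per class, the arterial list stood at 1878 CPM in arterial-marker, 379 in capillary-marker and 27.1 in venous-marker cells. The wider capillary list did not separate capillary-marker from venous-marker cells in this way, with 18945 and 17640 CPM. Each wider list includes the 2 markers that set its class, so these sums are not independent of the classes. The 2 capillary markers alone stood at 5011 CPM in capillary-marker and 1247 CPM in venous-marker cells. The rest of the wider capillary list thus stood lower in capillary-marker than in venous-marker cells.

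Col4a1 and Col4a2 are shown with their sequences because they are the only pair among the 10 genes that share a start region. They lie head to head on chromosome 8, on opposite strands, with start sites 21 bases apart. The windows from 250 bases before to 50 bases after each start (RefSeq, GRCm38.p6) overlap by 78 bases, which are in capitals, and each is written 5′ to 3′ on its own gene's strand. The Col4a1 window is chr8:11312777-11313076 on the minus strand and the Col4a2 window chr8:11312555-11312854 on the plus strand, so each holds the first bases of its own transcript and, in the shared part, those of its partner.
Col4a1: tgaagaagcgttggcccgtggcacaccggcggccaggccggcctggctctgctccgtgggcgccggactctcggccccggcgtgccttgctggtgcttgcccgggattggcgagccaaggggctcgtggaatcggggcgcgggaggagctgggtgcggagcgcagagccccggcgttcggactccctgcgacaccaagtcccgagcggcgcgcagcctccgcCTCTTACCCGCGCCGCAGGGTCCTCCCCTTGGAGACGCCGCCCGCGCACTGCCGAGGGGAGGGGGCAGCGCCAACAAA
Col4a2: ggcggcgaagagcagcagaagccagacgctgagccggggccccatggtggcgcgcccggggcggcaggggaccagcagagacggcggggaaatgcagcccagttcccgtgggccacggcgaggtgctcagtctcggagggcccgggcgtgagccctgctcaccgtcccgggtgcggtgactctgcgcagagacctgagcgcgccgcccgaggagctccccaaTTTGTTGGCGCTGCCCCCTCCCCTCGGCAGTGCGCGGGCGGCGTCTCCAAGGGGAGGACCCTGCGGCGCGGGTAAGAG
The GC box letters GGGCGG, searched on both strands, occur 1 time in the Col4a1 window and 3 times in the Col4a2 window. The 1 in the Col4a1 window lies in the shared bases and is the same site as 1 of the 3 in the Col4a2 window. GC box letters occur in 35.7% of 32851 windows of the same length. The letters CCAAT occur 1 time in each of these windows and in 37.4% of all windows, and TATAAA, found in 13.6% of all windows, in neither. Entries in this promoter table matched 6 of the 10 genes, the others being Timp3, Sparc, Ltbp4 and Adamts1. Mmrn2, Sparcl1, Fn1 and Lama4 were not matched.

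Detection spanned a wide range. With every cell thinned to 50000 counts, Sparc, a collagen-binding matricellular glycoprotein, had a count in 90.8% of Young1, 94.6% of Young2 and 96.5% of AY_Y3 cells. Sparcl1, its close relative, was counted in 86.8%, 92.2% and 90.6% of cells in that order. Ltbp4, which tethers latent TGF-beta to the matrix, was counted in 85.4% ± 3.04 of cells (mean ± SD of 3 sets, here and below) and Timp3, a metalloproteinase inhibitor that binds to matrix, in 81.4% ± 3.88. These 4 genes were each counted in at least 77.6% of the cells of every set.

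Fn1, the fibronectin gene, was counted in 68.4% of Young1 cells (exact Clopper-Pearson 95% interval 60.4 to 75.7), 81.3% of Young2 (74.6 to 86.9) and 89.5% of AY_Y3 cells (83.9 to 93.6). Its intervals in Young1 and AY_Y3 did not overlap, the widest gap between sets among the 10 genes. The intervals take the cells of a set as independent draws and cover the sampling of cells only. They do not measure the spread between sets, and cells are not replicates of a set. Reads without molecular identifiers are also not independent molecules. Col4a1 was counted in 68.8% ± 4.21 and Col4a2 in 58.4% ± 4.42 of cells. Mmrn2, which encodes multimerin-2, a glycoprotein of the endothelial matrix, was counted in 45.6% ± 5.21, and Adamts1, a secreted metalloproteinase that cleaves proteoglycans, in 32.8% ± 5.49. Lama4, a laminin alpha chain of endothelial basement membrane, was the least often counted, in 13.8%, 15.7% and 16.96% of cells. Without thinning the shares were 18.6% for Lama4, 78.9% for Col4a1 and 94.8% for Sparc.

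**Figure D1:**
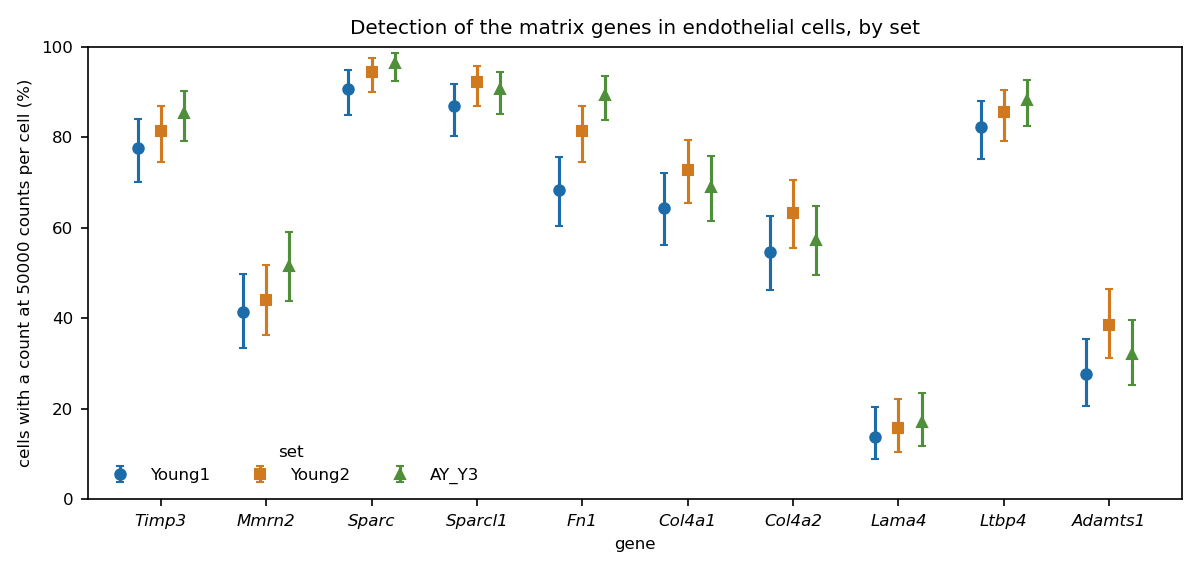
Share of endothelial cells with a count of each gene (y axis, percent, after thinning to 50000 counts per cell) in Young1, Young2 and AY_Y3; bars are exact 95% intervals. Sparc lies between 90.8% and 96.5% and Lama4 between 13.8% and 16.96%, and Fn1 differs most between sets.

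Per kilobase of exon the order of level was Sparc, Sparcl1, Timp3, Ltbp4, Fn1, Mmrn2, Col4a1, Col4a2, Adamts1 and Lama4. Exon lengths came from GENCODE vM21 and the annotation behind the counts is not given in the sources used here, so this order is approximate. Sparc was at 1004 ± 116.8 CPM per kb and Sparcl1 at 701 ± 83.4, while Lama4 was at 7.41 ± 2.02. Timp3 at 279 ± 68.6 CPM per kb lay above Ltbp4 at 143.5 ± 19.5, and Ltbp4 and Fn1 (122.8 ± 14.7) differed by about their SDs. Col4a1 at 53.0 ± 2.91 and Col4a2 at 48.8 ± 7.64 CPM per kb did not differ beyond their spread, and neither did Col4a2 and Adamts1 (40.0 ± 12.7).

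Within a set the levels were spread unevenly over cells. The median Sparc level was 2183 CPM in Young1, 2219 in Young2 and 2755 in AY_Y3, and the 5 cells with most Sparc held between 8.37% and 9.79% of its counts. Timp3 had medians of 531, 654 and 691 CPM but reached 6336, 12718 and 16290 CPM in the highest cell of each set, and its top 5 cells held 16.2% to 22.5% of its counts. Lama4 and Adamts1 had a median of 0 in all sets, and the top 5 cells held 36.9% to 56.1% of Lama4 counts and 36.0% to 46.0% of Adamts1 counts.

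Reads of overlapping genes cannot be told apart where strand was not used in counting, which the sources used here do not say. The gene that overlaps Timp3 on the opposite strand, Syn3, had 2287 counts over all cells against 594741 for Timp3. Gm26703, antisense to Sparcl1, had 410 counts against 1041773, and Apol7d, antisense to Fn1, had 226 against 541148. Col4a1 (175915 counts) and Col4a2 (162601) overlap at their first bases, and Gm44716 within Col4a1 had 45 counts.

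Between arterial-marker and capillary-marker cells, 1 of the 10 genes passed the test, Timp3. It was at 1662 CPM in Young1, 3815 in Young2 and 3617 in AY_Y3 among arterial-marker cells, and at 760, 762 and 777 CPM among capillary-marker cells. The sets did not overlap, and Young1, with 15 arterial-marker cells, lay lowest. This was a log2 fold change of 1.91 ± 0.23 (SE, n = 3 sets, edgeR adjusted p = 0.0289). edgeR called 0.319% of the 8776 genes tested in this contrast, 11 higher and 17 lower, with 592 at an unadjusted p under 0.05, and the median log2 fold change of all genes was −0.12. The edgeR adjusted p of Timp3 was 0.0980 with Mal dropped, 0.614 without Young2, 0.561 without AY_Y3, 0.103 at a score margin of 0, 0.372 at a margin of 1 and 1 at a limit of 500 CPM for other cell types. The call was kept in 8 of 14 alternatives, and the log2 fold change lay between 1.51 and 2.34 in those fitted on counts. The limma alternative gave 3.15. That value is a difference of means of log2(CPM + 1) over cells, which also follows the share of cells with a count, so it is another measure. No gene was called in this contrast without Young2 or without AY_Y3.

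Against venous-marker cells, which are furthest from arterial ones, 3 of the 10 genes passed, Timp3 and Mmrn2 higher and Fn1 lower in arterial-marker cells, where edgeR called 0.729% of 8776 genes. Timp3 was at 278, 457 and 490 CPM in venous-marker cells of Young1, Young2 and AY_Y3, below each of its capillary values. Arterial over venous cells differed by 2.91 ± 0.23 on the log2 scale (edgeR adjusted p = 0.00311). It did not pass without Young2 (edgeR adjusted p = 0.159) or without AY_Y3 (0.154), with a log2 fold change of 2.83 and 2.90, nor at a margin of 1 (0.0523) or the 500 CPM limit (0.149). In 10 of 14 alternatives the call was kept. The share of cells with a Timp3 count, thinned, was 97.8% ± 3.85 in arterial-marker, 81.8% ± 4.06 in capillary-marker and 75.04% ± 6.02 in venous-marker cells.

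Adamts1 is the protease among the genes, and its levels rested on few cells. It was at 246, 372 and 284 CPM in arterial-marker cells of Young1, Young2 and AY_Y3, at 131, 295 and 80.6 CPM in capillary-marker cells, and at 154, 10.8 and 238 CPM in venous-marker cells. In venous-marker cells of AY_Y3, 94.1% of its counts came from 1 cell. Over capillary cells the arterial log2 fold change was 0.85 ± 0.97 and over venous cells 1.23 ± 1.02 (edgeR adjusted p = 0.969 and 0.848). Counted as shares of cells, 62.9% ± 8.69 of arterial-marker, 26.2% ± 4.90 of capillary-marker and 21.3% ± 8.16 of venous-marker cells had a count. On mean log2(CPM + 1), where no single cell dominates, limma gave 3.01 over capillary cells (adjusted p = 0.00486) and 3.55 over venous cells (adjusted p = 0.000960). In each contrast this was the only 1 of 14 alternatives that called Adamts1. It called 389 and 631 of all 8776 genes in these contrasts, more than edgeR, which called 28 and 64. At the 500 CPM limit the edgeR value over capillary cells reversed to −1.046.

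Mmrn2 was at 701, 477 and 802 CPM in arterial-marker cells of Young1, Young2 and AY_Y3. It was at 218, 168 and 260 CPM in capillary-marker cells and at 132, 162 and 262 CPM in venous-marker cells. Every arterial value lay above every other value, while the capillary and venous values overlapped. Arterial over venous cells gave 1.91 ± 0.26 on the log2 scale (edgeR adjusted p = 0.0275), and arterial over capillary cells gave 1.64 ± 0.26, which did not pass (edgeR adjusted p = 0.0669). The first difference lost its call whichever set was left out, with an edgeR adjusted p of 0.131 for Young1, 0.297 for Young2 and 0.366 for AY_Y3. It also depended on how the classes were drawn, at 0.99 on the log2 scale with a score margin of 0 (edgeR adjusted p = 0.471), 1.43 with a margin of 1 (0.294), 1.13 with 8 markers (0.360) and 1.58 with Leiden clusters (0.0533). At the 500 CPM limit it was 3.75 (0.768), and 6 of 14 alternatives kept the call. The share of cells with an Mmrn2 count was 76.3% ± 7.88 in arterial-marker, 32.3% ± 5.52 in capillary-marker and 44.1% ± 11.1 in venous-marker cells.

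Fn1 ran the opposite way. It was at 1822, 1647 and 1983 CPM in venous-marker cells of Young1, Young2 and AY_Y3, at 765, 830 and 967 CPM in capillary-marker cells and at 235, 541 and 776 CPM in arterial-marker cells. In each set the order was venous, capillary, arterial, and the venous values lay above all others. For arterial over venous cells the log2 fold change was −1.88 ± 0.29 (edgeR adjusted p = 0.0414). It lost its call with the set not used as a block (edgeR adjusted p = 0.0579), without Young1 (0.0734), without Young2 (0.486) and without AY_Y3 (0.306), and with no filter on low counts (0.0726), a score margin of 1 (0.132), 8 markers (0.0562) or the 500 CPM limit (0.299). The call was kept in 6 of 14 alternatives. Among those it shrank to −1.25 with Mal dropped (edgeR adjusted p = 0.0109) and to −1.21 at a margin of 0 (0.0307). Limma on mean log2 values, which is another measure, also kept the call and gave −3.92. Venous over capillary cells gave 1.08 ± 0.28, which did not pass (edgeR adjusted p = 1).

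No gene at all was called by edgeR between venous-marker and capillary-marker cells (0% of 8776 genes, 273 at an unadjusted p under 0.05). In the same contrast DESeq2 called 82 genes and limma on mean log2 values 114. Among these Timp3 (log2 fold change −0.99, DESeq2 adjusted p = 0.00308) and Fn1 (1.09, DESeq2 adjusted p = 0.0129) passed by DESeq2, and Fn1 by limma (2.43, adjusted p = 0.0393). By edgeR the log2 fold change of venous over capillary cells was −1.003 ± 0.22 for Timp3 and −0.54 ± 0.16 for Ltbp4, with adjusted p of 0.961 and 1.

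Markers of other cell types that could carry matrix transcripts were summed per class. Of the lists given here, only the pericyte sums set a class apart. Mal, the gene behind most cells left out, did so too. It was at 353 to 887 CPM in arterial-marker, 608 to 765 CPM in capillary-marker and 902 to 1080 CPM in venous-marker cells. The 11 pericyte markers summed to 55.4 to 103.9 CPM in arterial-marker, 95.1 to 145.5 CPM in capillary-marker and 151 to 407 CPM in venous-marker cells. Of these, 9, 3 and 4 were at 0 in all sets in that order. The 9 astrocyte markers summed to 22.8 to 115.2, 92.3 to 273.8 and 24.96 to 176.6 CPM, ranges that overlapped. The 6 smooth muscle markers summed to 0 to 4.77, 0.485 to 1.08 and 0 to 2.24 CPM in the same order. The 5 fibroblast markers stood at or below 0.0772 CPM in every sum. In the 80 cells left out for pericyte markers Fn1 was at 935 CPM against 1021 CPM in the cells kept. The part of these markers in the class differences was not tested. Timp3 was at 569 against 1286 CPM and Mmrn2 at 122 against 312 CPM in the same comparison, Col4a1 at 350.3 against 349.7 CPM, and Sparcl1 at 2889 against 1909 CPM.

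**Figure D2:**
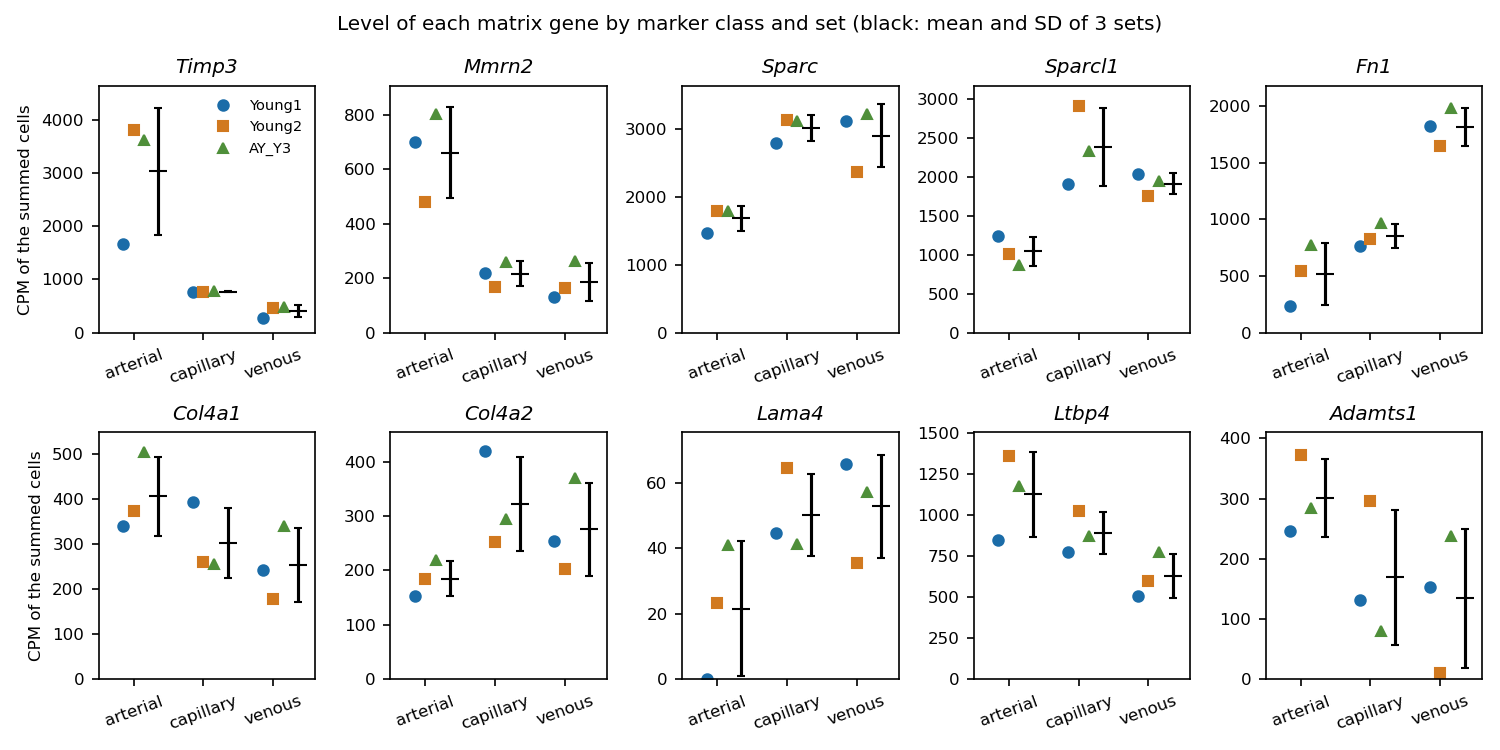
CPM of the summed cells (y axis, linear, from 0) of each gene in arterial-marker, capillary-marker and venous-marker cells; symbols are the 3 sets and the black bar gives their mean and SD. Timp3 and Mmrn2 stand highest in arterial-marker cells and Fn1 in venous-marker cells, while Sparc and Sparcl1 stand lowest in arterial-marker cells.

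Sparc and Sparcl1 had their lowest values in arterial-marker cells. Sparc was at 1474, 1786 and 1797 CPM there, at 2800, 3126 and 3115 CPM in capillary-marker cells and at 3121, 2367 and 3215 CPM in venous-marker cells of Young1, Young2 and AY_Y3. The arterial values did not overlap the others, but the difference did not pass the threshold. The log2 fold change of arterial over capillary cells was −0.81 ± 0.13 (edgeR adjusted p = 0.0814) and of arterial over venous cells −0.72 ± 0.13 (edgeR adjusted p = 0.0804). With counts thinned to 50000 per cell both passed (edgeR adjusted p = 0.0251 and 0.0247). In Young1, 55.6% of the arterial Sparc counts came from 1 of the 15 cells. Nearly as many arterial-marker as capillary-marker cells had a Sparc count, 92.9% ± 6.72 and 92.9% ± 6.45.

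For Sparcl1 the values were 1249, 1011 and 875 CPM in arterial-marker, 1909, 2919 and 2335 CPM in capillary-marker and 2034, 1763 and 1954 CPM in venous-marker cells of Young1, Young2 and AY_Y3. The log2 fold change of arterial over capillary cells was −1.16 ± 0.21 (edgeR adjusted p = 0.123) and of arterial over venous cells −0.82 ± 0.21 (edgeR adjusted p = 0.217). It passed in 5 of 14 alternatives for the first contrast, among them thinned counts (edgeR adjusted p = 0.0186) and classes from 8 markers (0.0226). Unlike Sparc, Sparcl1 was counted in a smaller share of arterial-marker cells, 74.7% ± 10.2 against 96.4% ± 4.11 of capillary-marker and 94.8% ± 5.60 of venous-marker cells.

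Ltbp4 was at 846, 1360 and 1177 CPM in arterial-marker, 776, 1027 and 875 CPM in capillary-marker and 508, 600 and 774 CPM in venous-marker cells. In each set the order was arterial, capillary, venous, the reverse of Fn1. Between arterial and venous cells the log2 fold change was 0.89 ± 0.16 (edgeR adjusted p = 0.0826), and it passed with Mal dropped (1.22, edgeR adjusted p = 0.0172) and with thinned counts (0.94, edgeR adjusted p = 0.0380). Arterial over capillary cells gave 0.35 ± 0.16 (edgeR adjusted p = 0.817).

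The frame genes of the basement membrane showed no called difference. Col4a1 was at 340, 373 and 505 CPM in arterial-marker, 393, 261 and 255 CPM in capillary-marker and 243, 177 and 339 CPM in venous-marker cells of Young1, Young2 and AY_Y3. Col4a2 was at 152, 184 and 218 CPM, at 419, 252 and 294 CPM and at 254, 202 and 369 CPM in the same order. The log2 fold changes of arterial over capillary cells had opposite signs, 0.44 ± 0.28 for Col4a1 and −0.76 ± 0.29 for Col4a2, and neither passed (edgeR adjusted p = 0.919 and 0.631). Against venous cells they were 0.76 ± 0.28 and −0.49 ± 0.29 (edgeR adjusted p = 0.449 and 0.723). Lama4 was at 0, 23.3 and 41.2 CPM in arterial-marker, 44.7, 64.6 and 41.2 CPM in capillary-marker and 65.7, 35.4 and 57.3 CPM in venous-marker cells, with 82.5% of its venous counts in AY_Y3 from 1 cell.

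Set against each other, the collagen IV pair gave 2.23, 2.03 and 2.31 counts of Col4a1 per count of Col4a2 in arterial-marker cells of Young1, Young2 and AY_Y3. The ratio was 0.939, 1.03 and 0.866 in capillary-marker and 0.957, 0.876 and 0.919 in venous-marker cells. The proteins combine in a trimer that holds more Col4a1 than Col4a2 chains. This ratio was looked at after the levels had been seen and has no test. The share of cells in which Col4a1 was the larger did not set the classes apart in this way. Among cells with a count of either gene it was 61.5%, 62.5% and 53.8% in arterial-marker, 51.9%, 52.4% and 63.9% in capillary-marker and 59.1%, 57.7% and 64.0% in venous-marker cells. Without the cell richest in each gene the arterial ratios were 1.19, 1.77 and 1.92. With classes from 8 markers the mean ratio was 1.35 in arterial and 1.45 in capillary cells, so the contrast between the classes was not kept.

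Slopes use all 489 cells and no class limits. Within each set log2(CPM + 1) of a gene was fitted on a score together with log2 depth, and the 3 slopes were tested against 0 with limma. Along the arterial score 2.22% of 8775 genes were called, along the capillary score 0.205% and along the venous score 9.57%, of which 819 were positive and 21 negative. The median slope over all genes was 0.11, −0.01 and 0.19 in that order, so a positive venous slope is common. Venous-marker cells also had more genes: median genes per cell, thinned, were 2077 to 2417 in venous-marker, 1609 to 2137 in arterial-marker and 1403 to 1651 in capillary-marker cells. The part of this in the slopes was not tested.

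Along the arterial score, 1 of the 10 genes was called. Mmrn2 had slopes of 1.38, 1.81 and 1.83 in Young1, Young2 and AY_Y3 (mean 1.68, limma adjusted p = 0.0204). Timp3 had slopes of 0.55, 1.88 and 1.45 (mean 1.29, limma adjusted p = 0.0630), Ltbp4 of 0.55, 0.99 and 0.61 (mean 0.72, limma adjusted p = 0.0537) and Adamts1 of 0.22, 1.38 and 1.64 (mean 1.08, limma adjusted p = 0.102). All 3 had positive slopes in every set, and all 3 passed with Mal dropped (limma adjusted p = 0.0439, 0.0277 and 0.0229). Sparcl1 had slopes of −0.29, −0.75 and −1.56 (mean −0.87, limma adjusted p = 0.122) and Fn1 of −0.55, −0.59 and −0.17 (mean −0.44, limma adjusted p = 0.133), negative in every set. The Mmrn2 call was lost without Young2 (limma adjusted p = 0.229) and without AY_Y3 (0.0891), and with a pseudocount of 10 (0.0968) the mean slope was 1.04. It was also lost with no filter on low counts (0.163), thinned counts (0.0563) and the 500 CPM limit (0.557).

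Mmrn2 was also the only one of the 10 genes called along the capillary score, in the negative direction. Its slopes were −1.10, −1.05 and −1.10, the closest agreement between sets of any slope here, with a mean of −1.08 (limma adjusted p = 0.0294). The call, kept in 3 of 10 alternatives, was lost with Mal dropped (−0.92, limma adjusted p = 0.0626), without Young1 (0.147) and without Young2 (0.0748). Sparcl1 had capillary slopes of 0.61, 1.45 and 0.33 (mean 0.80, limma adjusted p = 0.287), and Sparc of −0.03, 0.49 and 0.55 (mean 0.34, limma adjusted p = 0.555).

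Along the venous score 3 of the 10 genes were called. Fn1 had slopes of 1.64, 1.10 and 0.80 (mean 1.18, limma adjusted p = 0.0275) and Col4a2 of 0.43, 0.58 and 1.11 (mean 0.71, limma adjusted p = 0.0460). Timp3 had slopes of −0.51, −0.46 and −0.35 (mean −0.44, limma adjusted p = 0.0491). Timp3 was thus among the 21 genes with a called negative venous slope, against 819 with a positive one. No gene was called along this score when Young2 or AY_Y3 was left out, and the limma adjusted p was then 0.103 and 0.0985 for Fn1, 0.119 and 0.137 for Col4a2 and 0.146 and 0.137 for Timp3. Timp3 also lost its call without Young1 (0.124). Over the 10 alternatives Fn1 kept its call in 5, Col4a2 in 4 and Timp3 in 3, and with a pseudocount of 10 the Col4a2 slope was 0.34. The summed Col4a2 level was lower in venous-marker than in capillary-marker cells of Young1 (254 against 419 CPM) and Young2 (202 against 252 CPM). In AY_Y3 it was higher (369 against 294 CPM). A Col4a2 count was found in 72.4% ± 14.4 of venous-marker and 51.8% ± 10.6 of capillary-marker cells. Of the genes not called, Col4a1 had a mean venous slope of 0.44, Sparc of 0.40, Lama4 of 0.61 and Adamts1 of −0.40 (limma adjusted p = 0.119, 0.0807, 0.139 and 0.127).

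**Figure D3:**
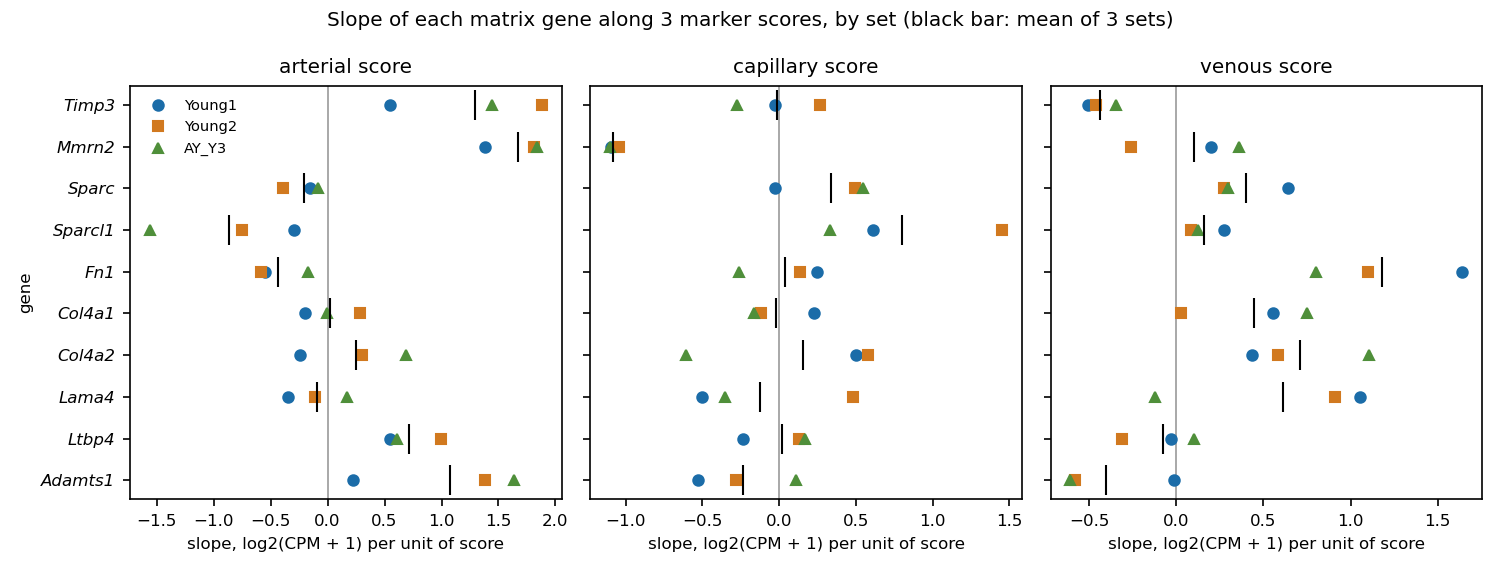
Slope of log2(CPM + 1) per unit of the arterial, capillary and venous score (x axes; depth is in the fit) for each gene (y axis); symbols are the 3 sets and the black bar is their mean. Mmrn2 lies right of 0 on the arterial and left of 0 on the capillary score in every set, and Fn1 right of 0 on the venous score.

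Co-expression was read within each set after depth had been removed, as the mean of 3 Pearson correlations over 152, 166 and 171 cells. The cells of a set share their library preparation, and the values are descriptions of sparse counts. Of 45 pairs, 12 had a mean r of 0.1 or more and 5 of −0.1 or less. The largest values were between Timp3 and Mmrn2 (0.241), with 0.108, 0.302 and 0.314 in Young1, Young2 and AY_Y3, and between Timp3 and Adamts1 (0.232), an inhibitor and a protease. Mmrn2 and Adamts1 had a mean r of 0.191. Sparc varied with Fn1 (0.214) and with Sparcl1 (0.187).

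The head-to-head genes Col4a1 and Col4a2 had a mean r of 0.199 (SD 0.122), with 0.302, 0.0643 and 0.231 in the 3 sets. For Timp3 and Mmrn2, which lie on different chromosomes, it was 0.241 (SD 0.116), which did not differ beyond this spread. In Young1 Col4a1 and Col4a2 had the higher value, 0.302 against 0.108. The part of the shared start region was not tested. The most negative values were between Mmrn2 and Sparcl1 (−0.196), Sparcl1 and Adamts1 (−0.188) and Timp3 and Sparc (−0.135). These 3 pairs were negative in every set. Timp3 and Fn1 had a mean r of −0.124 but 0.00659 in AY_Y3.

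**Figure D4:**
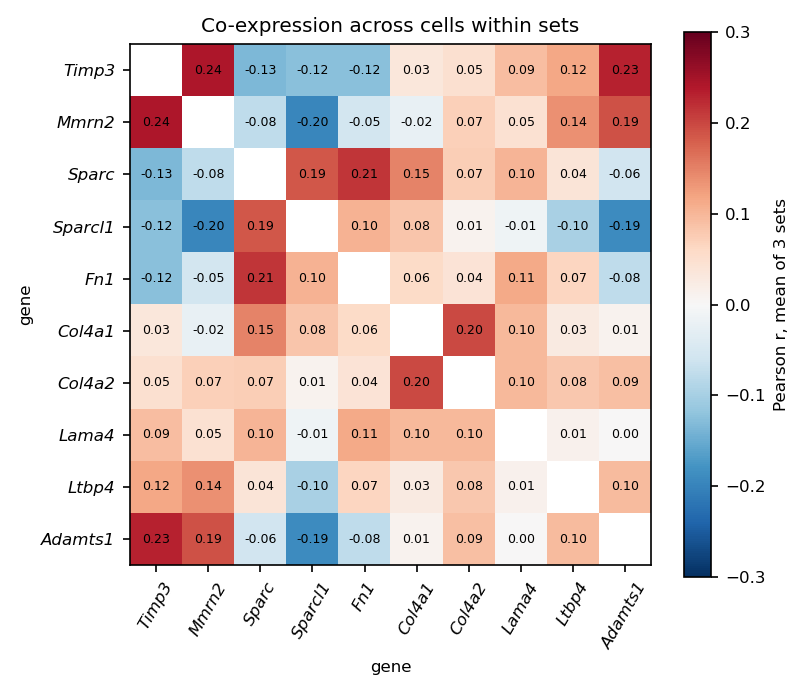
Mean over 3 sets of the Pearson correlation across cells of all classes (colour and printed value) for each pair of the 10 genes on both axes. Timp3, Mmrn2, Adamts1 and Ltbp4 have positive values with each other, and Sparcl1 has negative values with these 4.

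Among 3891 other genes with a count in at least 20% of cells, those most like each matrix gene were found by the same measure. Timp3 was most like Cdk19, a Mediator kinase gene (mean r 0.417), and Stmn2, of the stathmin family (0.391). Mmrn2 was most like the tetraspanin gene Cd9 (0.386) and the cyclin gene Ccnd2 (0.375). Adamts1 was most like the nuclear receptor gene Nr4a1 (0.368) and Cdk19 (0.349), and Ltbp4 like the vimentin gene Vim (0.232) and Stmn2 (0.221). Cdk19 and Stmn2 thus each stood beside a pair of these genes.

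Sparc was most like Tmsb4x, which encodes an actin-binding thymosin (0.326), and Ctla2a, a protease inhibitor gene (0.319). Sparcl1 was most like the carbonic anhydrase gene Car4 (0.397), which is on the wider capillary list, and Gatm, of creatine synthesis (0.395). Fn1 was most like Tmsb10, another thymosin gene (0.366), and Gm9844 (0.359). Col4a1 was most like Eapp (0.213). Col4a2 was most like Hmgn1 (0.232) and Podxl, which encodes podocalyxin of the cell surface (0.210). Among the genes most like Lama4 was Vwf, the von Willebrand factor gene, which is on the wider venous list (0.251).

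The wider lists of matrix genes held 119 genes, of which 107 were in the table and 52 were tested, 42 of them outside the 10. Beyond the 10 genes, 1 passed a contrast between classes: Tgm2, a transglutaminase that cross-links matrix proteins such as fibronectin. It was at 1162, 1575 and 1997 CPM in venous-marker cells of Young1, Young2 and AY_Y3, at 397, 314 and 542 CPM in arterial-marker cells and at 308, 468 and 589 CPM in capillary-marker cells. The log2 fold change of arterial over venous cells was −1.84 ± 0.23 (edgeR adjusted p = 0.0216), beside −1.88 for Fn1. No gene was called in this contrast when Young2 or AY_Y3 was left out, so Tgm2 was lost there too, and 0.729% of all genes tested were called on all sets. The other 41 did not pass this contrast, and none of the 42 passed the other contrasts.

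Of 6 tested laminin genes, 3 collagen genes of types IV, XV and XVIII, 4 nidogen and proteoglycan genes and 10 matrix receptor genes, none passed a contrast between classes, where 0.319%, 0% and 0.729% of all genes were called. The receptor genes had 1 called positive arterial slope, Bcam (0.67, limma adjusted p = 0.0464), and 1 negative, Itga6 (−0.87, limma adjusted p = 0.0335). Of 8 tested fibronectin, elastic fibre and microfibril genes, 5 were called with a positive and none with a negative slope along the arterial score, and 3 with a negative slope along the capillary score, where 2.22% and 0.205% of all genes were called. The median slope of these 8 genes was 1.04 along the arterial and −0.92 along the capillary score, against 0.11 and −0.01 for all genes tested. Beside Mmrn2 the positive ones were Eln, which encodes elastin, Fbln2 and Fbln5, which encode fibulins, and Mgp, the matrix Gla protein gene. Mean arterial slopes were 1.04 for Eln, 1.58 for Fbln2, 1.046 for Fbln5 and 2.69 for Mgp (limma adjusted p = 0.0208, 0.0208, 0.0228 and 0.0204). Along this score no gene was called without Young2, without AY_Y3, with a pseudocount of 10, no filter on low counts, thinned counts or the 500 CPM limit. Timp2, of the protease and inhibitor list, also had a called positive arterial slope. Along the venous score, 5 of the 42 genes outside the 10 had a called positive slope: Reck, Plat, P4ha1, Tgm2 and Itga6. Fbln2 had a called negative one, and 9.57% of all genes were called along this score. Without Young2 or without AY_Y3 no gene was called along it. Apart from Mmrn2 and Tgm2, the genes named here for a slope were named after their values had been seen.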

How the data were processed

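Single brain endothelial cells had been sequenced as separate libraries. The deposited values were raw read counts per gene and cell, with no normalization, per the labels and the values themselves. The submitters' processing notes list Bowtie 0.12.2 and the builds mm8 and mm10 but no role for them. Counting tool, annotation and strand: not given in the sources used here. The 10 genes and the marker and gene lists were chosen with earlier results of these data known, so patterns that those results hold are not independent support.

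Cells with 2000 CPM or more on another type's list were left out. No doublet caller was run. Counts were summed per set and class (9 sums of 12959798 to 50159352 counts). The quasi-likelihood model of edgeR 4.0.16, run in R 4.3.3, was fitted with TMM and the set as a block, as each set gave all 3 classes. That left 4 residual degrees of freedom. Tested genes passed filterByExpr and were counted in 5% of the cells or more, and no marker of the classes was tested. The classes come from the same cells as the tests. limma 3.58.1 tested the 3 slopes per gene. All p-values were adjusted by Benjamini-Hochberg over all genes tested, at a threshold of 0.05. The code was tested on simulated data. A first simulation with small folds had its folds estimated correctly but not called, and larger folds and more abundant genes were then simulated with the fit unchanged, so a gene that is not called here may still differ. CPM values are means or single sums per set, and each log2 fold change is given ± SE.

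Genes named beside the 10 were matrix-list genes past the edgeR threshold in a contrast (at most 5 per direction) and, for each of the 10, the 2 genes with the highest mean correlation. Some of these are not reported here. Alternatives were DESeq2 1.42.0, no filter, leaving out each set, no block, limma on mean log2(CPM + 1), thinned counts, other margins, 8 markers, Leiden clusters (leidenalg 0.10.2), a limit of 500 CPM, a pseudocount of 10, no depth term and, chosen after seeing the data, Mal dropped. Counts per cell ran from 52819 to 2421434.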

Additional observations from a re-analysis of the deposited data

How the results depend on the processing

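Of 30 log2 fold changes and 30 slopes of the 10 genes, 4 and 5 passed. Over all alternatives 14 fold changes and 13 slopes changed direction at least once, and none of these was called as reported or in the alternative that reversed it. The 9 values that passed kept their direction in all of them.

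Without 1 set the number of genes called ran from 0 to 9 for arterial against capillary cells (28 on all sets), from 0 to 19 for arterial against venous cells (64), from 0 to 448 along the arterial score (195), from 0 to 78 along the capillary score (18) and from 0 to 388 along the venous score (840). For venous against capillary cells it was 0 throughout. These fits also have fewer samples to estimate the spread. For arterial against capillary cells DESeq2 called 372 genes, limma on mean log2 values 389 (306 higher and 83 lower, with a median over all genes of 0.19), thinned sums 97, Leiden clusters 89, a score margin of 0 gave 5, a margin of 1 gave 11 and the 500 CPM limit 0. For arterial against venous cells the counts were 585, 631, 147, 128, 17, 17 and 2 in that order, 24 with 8 markers and 98 with Mal dropped. For venous against capillary cells DESeq2 called 82, limma 114 (113 of them higher, with a median of 0.41) and edgeR with Mal dropped 1. Along the arterial score a pseudocount of 10, no filter, thinned counts and the 500 CPM limit each gave 0 and 8 markers gave 433. Along the capillary score a pseudocount of 10, no filter and the 500 CPM limit each gave 0, 8 markers 480 and Mal dropped 58. Along the venous score the same 3 settings each gave 0, thinned counts 354, 8 markers 1906 and Mal dropped 1570. The 500 CPM limit keeps 163 cells. Mal alone had a median of 847 CPM over all cells, and this limit was not run with Mal dropped. The causes of the differences between settings were not tested.

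None of the slopes printed above reversed, and 7 of the printed fold changes did, none of which passed. Also reversed at least once were venous over capillary values of Mmrn2, Sparc, Col4a1, Col4a2, Lama4 and Adamts1, the arterial over capillary value of Lama4, and 13 slopes: arterial of Sparc, Col4a1, Col4a2 and Lama4, capillary of Timp3, Fn1, Col4a1, Col4a2, Lama4 and Ltbp4, and venous of Mmrn2, Sparcl1 and Ltbp4. At the 500 CPM limit they were 0.36 for Sparcl1 (arterial over venous) and, for arterial over capillary, −0.039 for Ltbp4 and −1.046 for Adamts1. Col4a1 reversed to −0.051 over capillary cells at a margin of 1 and to −0.85 over venous cells by limma. Col4a2 over capillary cells was 0.37 by limma, 0.38 with 8 markers and 0.10 with Leiden clusters, and 0.22 over venous cells with Leiden clusters. Without the set as a replicate block 42, 0 and 69 genes were called in the 3 contrasts; of the 10 genes' calls, that of Fn1 was lost. Detection falls when 5 counts are asked for after thinning, for Col4a1 from 68.8% to 53.7% and for Lama4 from 15.5% to 10.99% of cells.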
